A study of Mus musculus with 64 samples.

Results

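The transcripts described here are those of 10 mouse genes, Pttg1, Prdx2, Mtmr7, Prune2, Pcdhb9, Cap1, Stk25, Tia1, Tmem87a and Rpgrip1, whose signal fell into separate levels from mouse to mouse. They are 10 of the 18193 genes with a probe set of their own on the array and were chosen from the measured values themselves. A probe set, the group of short probes that measures 1 transcript, counted as having 2 levels when the 32 arrays of a region could be split at their widest gap into groups of at least 3 arrays whose means lay at least 5 pooled within-level SDs apart, in hippocampus and again in prefrontal cortex. Of the 26 probe sets annotated to the 10 genes, 11 probe sets of 9 genes met this rule, against 33 of all 45037 probe sets (0.0733%). Pcdhb9, with its only probe set 1422640_at, fell just short at 4.80 SDs in hippocampus and 4.78 SDs in prefrontal cortex, and the member nearest to the limit on the inside was Stk25 at 5.45 SDs. Over the whole array the nearest probe set outside the limit stood at 4.999 SDs and the nearest inside at 5.02 SDs. The other 14 probe sets of these genes had separations of 2.17 to 3.09 SDs in their less separated region.

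The study infused PF-04447943, an inhibitor of the phosphodiesterase PDE9A, or vehicle by implanted pump for 28 days into Tg2576 mice and wild-type littermates aged 4 months. Tg2576 mice overexpress a mutant human amyloid precursor protein, in the published line from a hamster prion promoter, and all animals are labelled B6SJLF1, a C57Bl/6 by SJL hybrid. The 4 groups, Tg2576 given PF-04447943, Tg2576 given vehicle, wild-type given PF-04447943 and wild-type given vehicle, had 8 hippocampal and 8 prefrontal cortex arrays each, 64 in all. Each array came from a separate RNA sample on an Affymetrix whole-genome mouse array.

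On such an array the signal of a probe set reflects how much transcript is present and how well the probes pair with it, so a change in either gives a different level. Which of them sets the levels described here was not tested. The 10 genes belong to no common pathway. Pttg1 encodes securin, which holds separase inactive until sister chromatids part. Prdx2 encodes a peroxiredoxin that removes hydrogen peroxide, and Mtmr7 a member of the myotubularin family of lipid phosphatases. Prune2 encodes a large neuronal protein with a BNIP2 and Cdc42GAP homology domain, Pcdhb9 a clustered beta protocadherin of the cell surface, and Cap1 a cyclase-associated protein that recycles actin. Stk25 is a Ste20-like kinase of the Golgi, Tia1 an RNA-binding protein of stress granules, Tmem87a a membrane protein, and Rpgrip1 the partner of the retinitis pigmentosa GTPase regulator in the photoreceptor cilium.

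The arrays were alike in overall signal, with median intensities of 91 to 100.88 and correlations within a region of at least 0.974. Markers of dentate gyrus and hippocampus were higher in hippocampus in 5 of 5 genes (median log2 difference, hippocampus minus prefrontal cortex, 3.51), and markers of cortical layers were higher in hippocampus in 1 of 5 (median -1.61). All 5 choroid plexus markers were also higher in hippocampus (median 1.34), and their part in the results was not tested. The array numbers in the labels did not run in parallel in 1 group: in Tg2576 mice given PF-04447943, hippocampal arrays 1, 2, 3, 4, 5 and 6 had the level profiles of prefrontal cortex arrays 2, 3, 4, 5, 6 and 1. Numbers 7 and 8 of that group, and all 24 numbers of the other 3 groups, carried the same profile in both regions. Agreement between regions is therefore given by label number and with the matching arrays. The remaining comparisons use the group alone and do not depend on the numbers, except for the alternative fits with a block.

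Prune2 had the widest gap on the log2 scale among the lead probe sets. In hippocampus its lead probe set 1432198_at lay between 8.86 and 10.67 on the log2 scale in the 24 upper arrays and between 4.61 and 5.34 in the 8 lower ones, and in prefrontal cortex between 9.40 and 10.79 in the upper and between 4.80 and 5.83 in the lower arrays. No array fell in the gap of more than 3.5 log2 units between them. Its lower level averaged 5.05 in hippocampus and 5.23 in prefrontal cortex, below the mean signal of 5.94 and 5.91 that marks the 40th percentile of probe sets. The files give no background call, so the lower level was not shown to be above background and no fold is given.

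Mtmr7 (1447831_s_at) and Tia1 (1431708_a_at) also had lower levels that averaged below the 40th percentile. The 23 upper Mtmr7 arrays averaged log2 8.97 in hippocampus and 9.68 in prefrontal cortex, against 5.02 and 5.22 in the 9 lower arrays. The 25 upper Tia1 arrays averaged 8.65 in hippocampus and 8.55 in prefrontal cortex, against 4.89 and 5.07 in the 7 lower arrays. The highest value at the lower level of either gene was 6.00. In whole tissue, fewer cells that hold a transcript and less transcript per cell cannot be told apart.

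For Pttg1, Cap1 and Prdx2 the lower level of the lead probe set lay well above the 40th percentile. The Pttg1 lead 1438390_s_at averaged log2 11.68 in hippocampus and 11.80 in prefrontal cortex in 26 upper arrays, against 8.53 and 8.73 in 6 lower arrays. Cap1 (1417461_at) averaged 10.95 in hippocampus and 10.79 in prefrontal cortex in 25 upper arrays, against 8.76 and 8.72 in 7 lower arrays. Prdx2 (1430979_a_at) averaged 10.13 in both regions in 23 upper arrays, against 8.19 in hippocampus and 8.08 in prefrontal cortex in 9 lower arrays. The lowest single value among these 3 lead probe sets was 7.65.

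Rpgrip1 (1421144_at) averaged 9.40 in hippocampus and 9.54 in prefrontal cortex in 24 upper arrays, against 6.79 and 6.96 in 8 lower arrays. Tmem87a (1424454_at) averaged 8.85 in hippocampus and 9.02 in prefrontal cortex in 20 upper arrays, against 6.49 and 6.23 in 12 lower arrays. Pcdhb9, just outside the rule, averaged 8.49 in hippocampus and 8.42 in prefrontal cortex in 17 upper arrays, against 6.43 and 6.69 in 15 lower arrays, and still left an empty gap of 0.72 and 0.85 log2 units. Stk25 (1416770_at) had the smallest step. Its 23 upper arrays averaged 11.14 in hippocampus and 10.96 in prefrontal cortex, against 10.23 and 9.97 in 9 lower arrays, a 1.88-fold and a 1.98-fold difference.

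**Figure D1:**
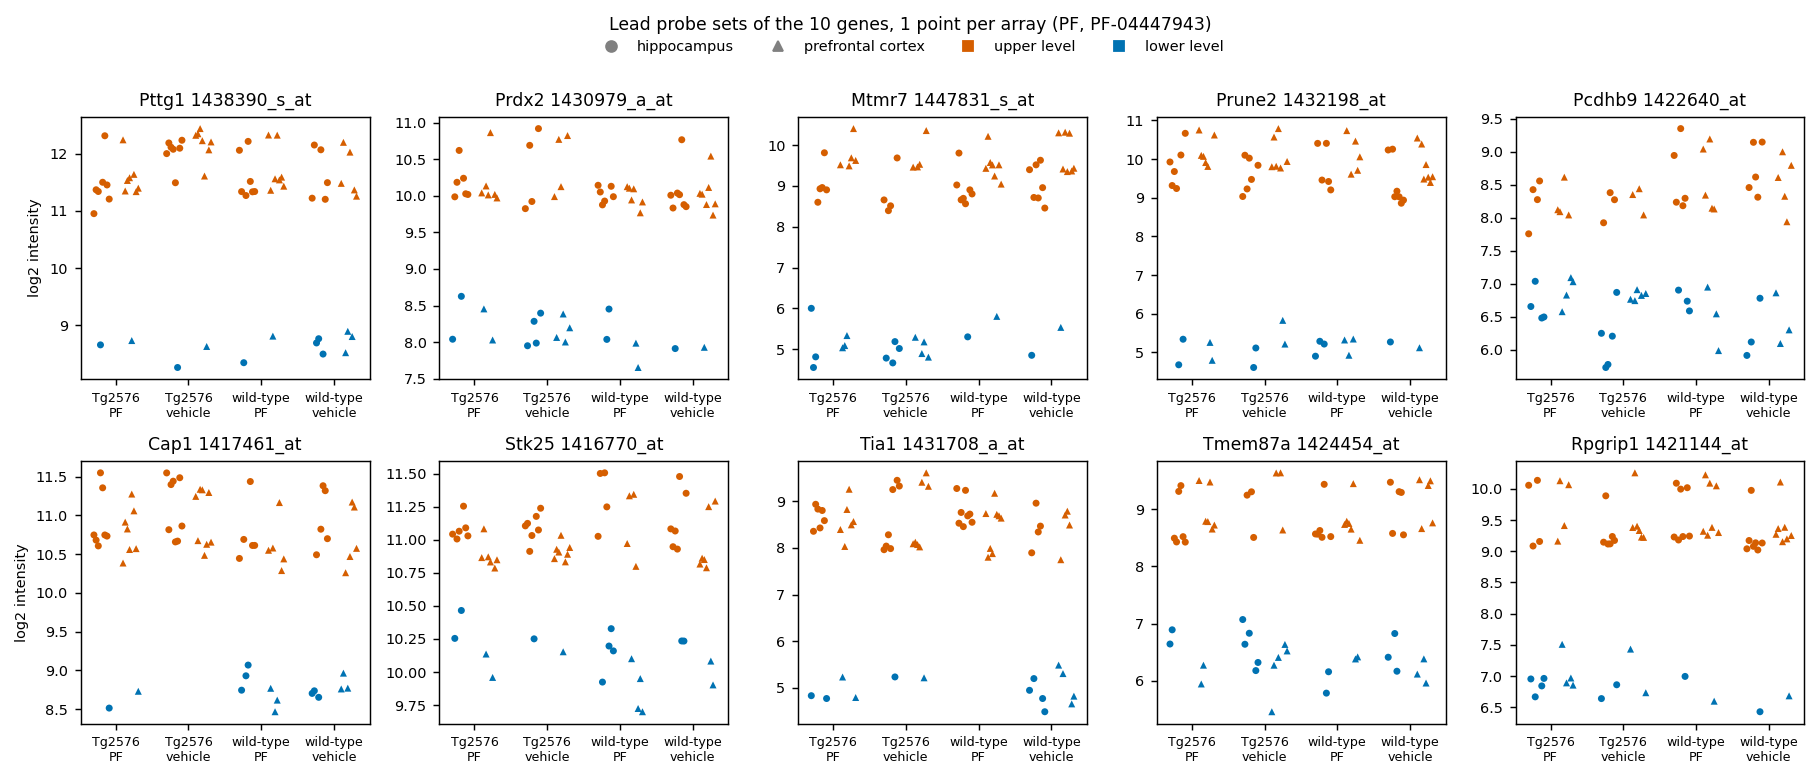
Log2 intensity (vertical axis) of the lead probe set of each gene in every array, by group (horizontal axis), with circles for hippocampus, triangles for prefrontal cortex, orange for the upper and blue for the lower level. Each of the 10 panels shows an empty band between the levels, narrowest for Stk25 and widest for Prune2, and all but 2 of the 40 combinations of gene and group hold arrays of both levels.

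The upper level was the more frequent for all 10 genes, from 17 of 32 mice for Pcdhb9 (53.1%, exact Clopper-Pearson 95% interval 34.7 to 70.9) and 20 of 32 for Tmem87a (62.5%, 43.7 to 78.9) to 26 of 32 for Pttg1 (81.25%, 63.6 to 92.8). The count of upper arrays was equal in hippocampus and prefrontal cortex for 10 of 10 genes in all 4 groups.

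For the lead probe sets of 4 genes the upper level itself held 2 steps, so that the name of 2 levels is too coarse for them. The same rule was applied again within the upper arrays, a step chosen after the data were seen. The lead probe sets of Pttg1, Prdx2, Tmem87a and Rpgrip1 then had 3 levels in both regions, with equal counts in both. Pttg1 had 11 high, 15 middle and 6 low arrays, and Prdx2 had 4 high, 19 middle and 9 low. Tmem87a had 8 high, 12 middle and 12 low, and Rpgrip1 had 7 high, 17 middle and 8 low. The middle level was the largest for 3 of the 4 and tied with the low one for Tmem87a.

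The upper step was of similar size in all 4 genes, at 0.75 to 0.88 log2 units (high minus middle), while the middle minus low step differed between them. Rpgrip1 in hippocampus ran from 9.89 to 10.14 in the high and from 9.02 to 9.24 in the middle arrays, a high minus middle difference of 0.88. Prdx2 in hippocampus ran from 10.62 to 10.92 in the high and from 9.82 to 10.24 in the middle arrays, a difference of 0.75. Middle minus low, the hippocampal means differed by 2.35 for Rpgrip1, 2.03 for Tmem87a and 1.81 for Prdx2. Mtmr7 missed the rule narrowly, with 6 high, 17 middle and 9 low arrays in both regions but a separation of 4.91 SDs in hippocampus, against 6.50 SDs in prefrontal cortex. Cap1 had 9 high, 16 middle and 7 low arrays in hippocampus at 7.34 SDs, but only 4.40 SDs at the widest gap of its upper prefrontal cortex arrays. Over the whole array 5 probe sets had 3 levels in both regions, these 4 and 1441388_at, which has no gene symbol in the annotation used.

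**Figure D2:**
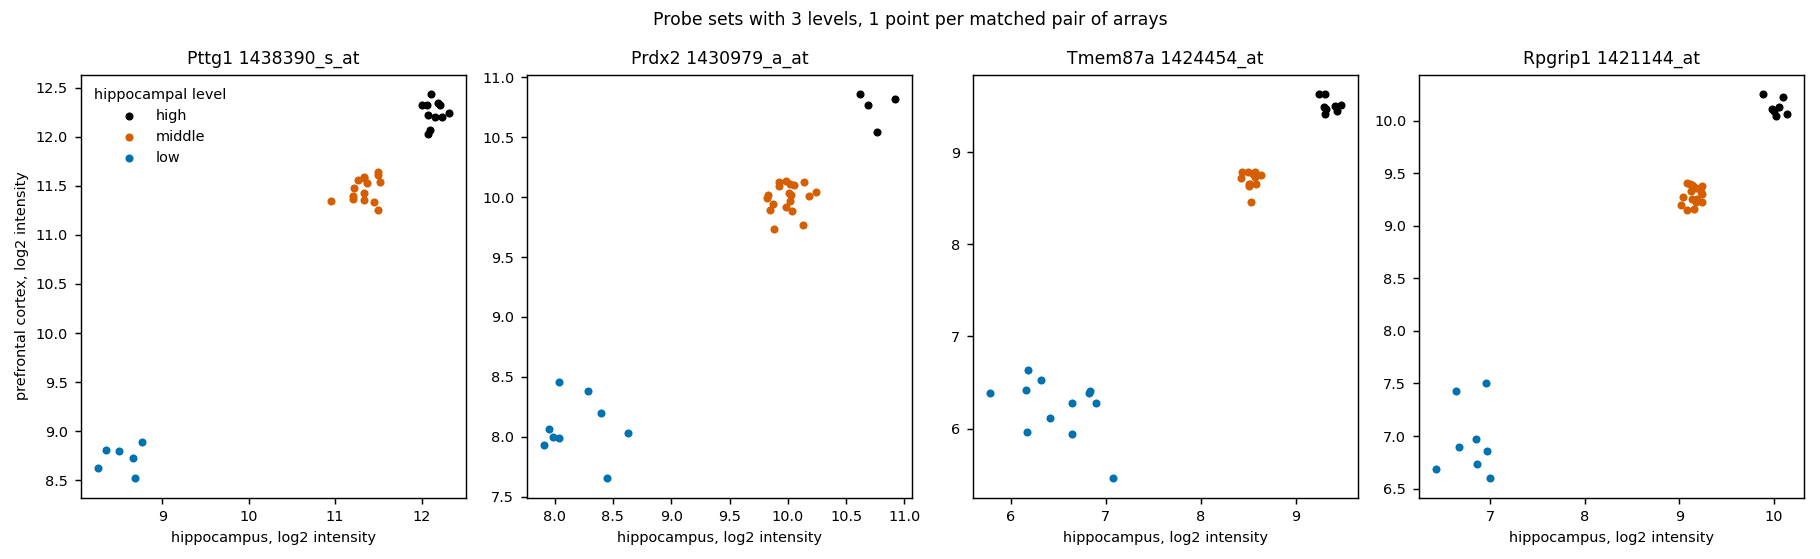
Log2 intensity in prefrontal cortex (vertical) against hippocampus (horizontal) for the 4 genes with 3 levels, 1 point per matched pair of arrays, coloured by the hippocampal level. In each panel the points form 3 separate clouds along the diagonal. Pairs were matched on the levels of probe sets of other chromosomes.

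Other probe sets of the same genes differed in whether they followed these levels. Probe sets of 1 gene differ in the stretch of transcript they bind, and a suffix of _s_at or _a_at means that probes can be shared between transcripts, so that the source of such a signal is less certain. This applies to the lead probe sets of Pttg1, Mtmr7, Prdx2 and Tia1. These correlations are descriptions over 64 values centred by region, in which both probe sets share the same array. Cap1 1417462_at and Pttg1 1424105_a_at met the 2-level rule themselves and correlated with the lead of their gene at r = 0.99 each. They assigned every array the upper or lower level given by that lead. Pttg1 1424105_a_at did not meet the rule for 3 levels, at 4.00 SDs in hippocampus and 3.69 SDs in prefrontal cortex. Its widest upper gap in prefrontal cortex left 9 high and 17 middle arrays, against 11 and 15 for the lead.

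Pttg1 1419620_at followed the 3 levels of the lead with smaller steps (r = 0.86). In hippocampus it averaged log2 6.53 ± 0.12 in the 11 arrays at the high level of the lead, 6.05 ± 0.11 in the 15 middle and 5.53 ± 0.16 in the 6 low ones (SD). In prefrontal cortex it averaged 6.54 ± 0.17, 6.15 ± 0.17 and 5.73 ± 0.14 at the same 3 levels. Its ranges at the 3 levels did not overlap in hippocampus, while in prefrontal cortex the high range (6.27 to 6.88) overlapped the middle one (5.89 to 6.47). Mtmr7 1427025_at also ran with its lead (r = 0.60), but only weakly. It averaged 9.13 ± 0.14 in hippocampus and 9.55 ± 0.13 in prefrontal cortex where the lead was upper (SD, n = 23), against 9.02 ± 0.16 and 9.31 ± 0.12 where it was lower (n = 9), and the ranges overlapped.

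For Prune2 and Prdx2 another probe set ran the opposite way. Prune2 1455342_at (r = -0.79) averaged 9.10 ± 0.32 in hippocampus and 9.25 ± 0.26 in prefrontal cortex in the arrays with the upper level of the lead (SD, n = 24), against 9.81 ± 0.18 and 9.82 ± 0.16 in those with the lower level (n = 8). It was thus lower by 0.71 and 0.57 log2 units where the lead was 4.57 and 4.83 units higher, although single arrays overlapped. Prdx2 1418506_a_at (r = -0.60) averaged 11.65 ± 0.11 in the 4 hippocampal arrays at the high level of the lead, 11.80 ± 0.09 in the 19 middle and 11.97 ± 0.12 in the 9 low ones (SD). The order of its means was the same in prefrontal cortex, at 11.76 for high and 11.92 for middle, and highest at the low level.

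The remaining probe sets had weaker correlations with the lead of their gene. The 5 other probe sets of Tia1 had correlations of -0.19 to 0.11 with it, and 1416812_at averaged 10.14 ± 0.17 in hippocampal arrays with the upper Tia1 level (SD, n = 25) and 10.11 ± 0.16 in those with the lower (n = 7). Of these 5, 1453803_at differed most. In prefrontal cortex it averaged 6.78 ± 0.28 in arrays with the upper Tia1 level and 7.06 ± 0.28 in those with the lower (SD). In hippocampus its means were 6.78 and 6.81. The 3 others of Rpgrip1, with means of 3.63 to 4.92, had correlations of -0.19 to 0.14. Of the Prune2 probe sets, 1430757_at had r = -0.04 and 1439274_at r = -0.34, with means lower by 0.23 in both regions where the lead was upper and with overlapping ranges. The other probe sets of Tia1 and Rpgrip1 overlapped between the levels of the lead.

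**Figure D3:**
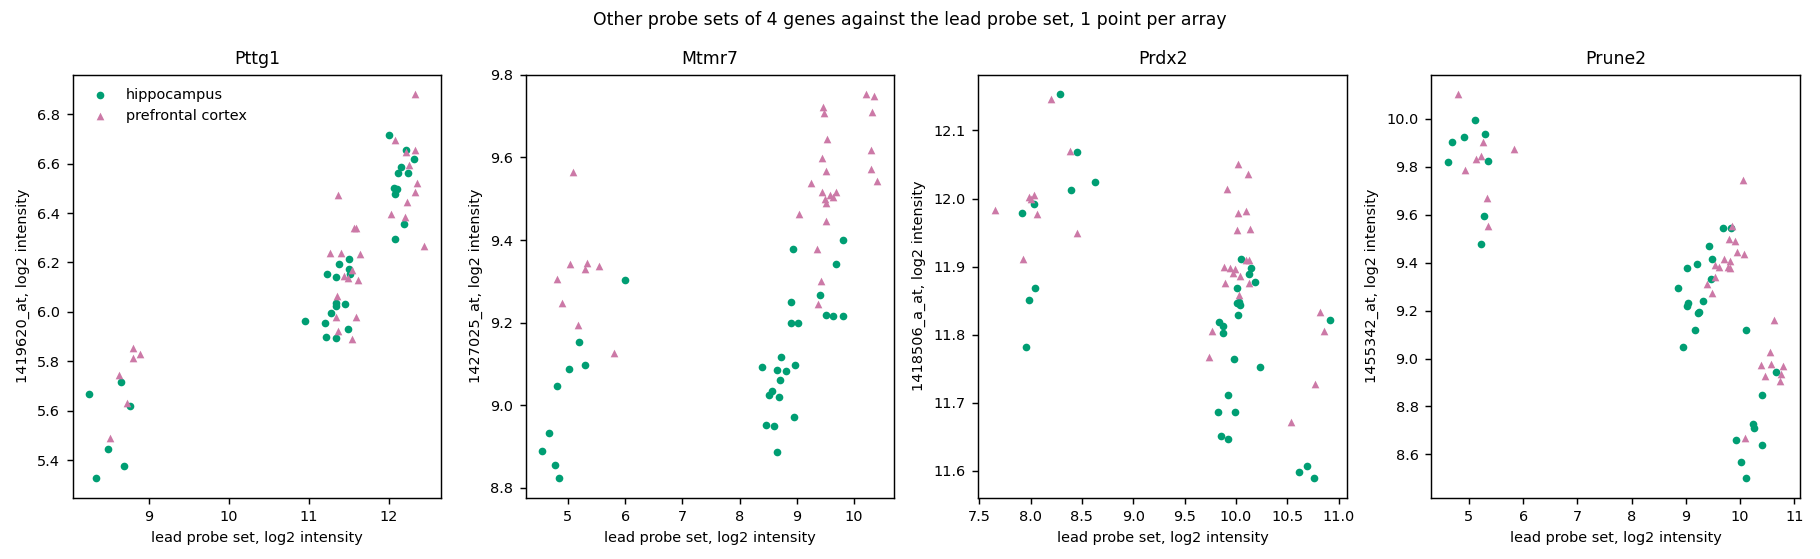
Log2 intensity of another probe set (vertical) against the lead probe set of the same gene (horizontal) in all 64 arrays, circles for hippocampus and triangles for prefrontal cortex. The Pttg1 and Mtmr7 clouds climb with the lead, at r = 0.86 and 0.60, and the Prdx2 and Prune2 clouds decline, at r = -0.60 and -0.79.

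The levels agreed between the brain regions more often within a number than across numbers. By label number, all 10 genes agreed in 24 of 24 pairs of the other 3 groups, and every disagreement lay in the Tg2576 mice given PF-04447943. Of 32 pairs, Cap1 agreed in 32, Pttg1, Mtmr7, Prune2, Tia1 and Tmem87a in 30, and Prdx2, Pcdhb9, Stk25 and Rpgrip1 in 28. Arrays of the same group with different numbers agreed in 47.3% (Pcdhb9) to 69.6% (Tia1) of 224 pairs. Given group, the exact conditional test of agreement by number passed for 11 of 11 two-level probe sets of these genes (Benjamini-Hochberg adjusted p 0.000123 to 0.00638), beside 93.9% of the 33 two-level probe sets of the array. The members' share is near this background, and the 2 probe sets that did not pass were those of Meg3 and Aqp1.

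When arrays were matched within their group using only two-level probe sets on other chromosomes than the gene in question, all 10 genes agreed in 32 of 32 pairs. This match moved 6 pairs, all among the Tg2576 mice given PF-04447943. With the high and middle levels kept apart, Pttg1, Prdx2, Tmem87a and Rpgrip1 agreed in 32 of 32 matched pairs as well.

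The 10 levels together nearly identified an array. Among the 256 pairs of a hippocampal and a prefrontal cortex array of the same group, 34 had equal levels in all 10 genes, and 26 of these had the same number. Of the 32 hippocampal arrays, 30 had exactly 1 such partner and the other 2, wild-type arrays given PF-04447943, had more. The remaining pairs differed in 1 to 7 genes (median 4). The 6 same-numbered pairs that did not match differed in 3 to 6 genes. The 32 hippocampal arrays carried 31 different profiles, with 4 to 10 genes at the upper level (median 7).

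**Figure D4:**
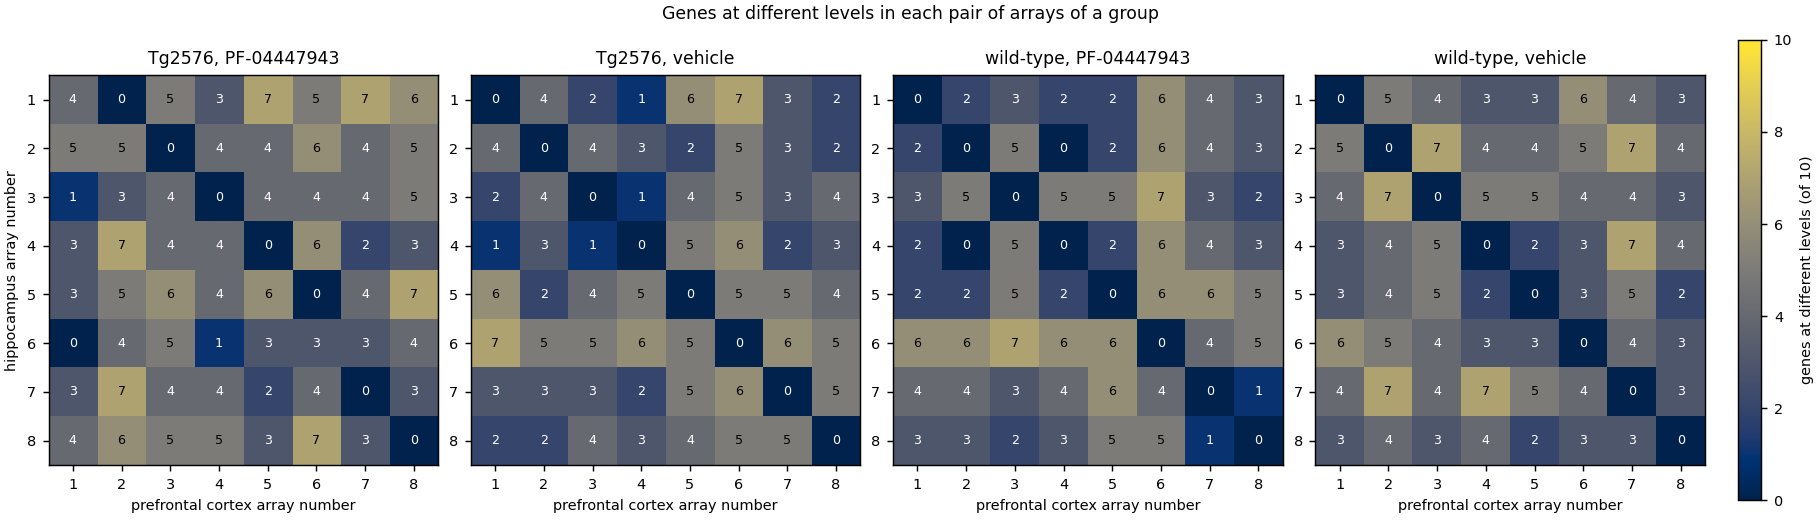
Number of the 10 genes at different levels in each pair of a hippocampal array (rows, by number) and a prefrontal cortex array (columns, by number), 1 panel per group. Zeros lie on the diagonal in the 3 groups on the right, with 2 more in wild-type mice given PF-04447943, while in Tg2576 mice given PF-04447943 hippocampal arrays 1 to 5 meet the next prefrontal number and array 6 meets number 1.

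No difference in level frequency between Tg2576 and wild-type mice passed the test. None of the 11 two-level probe sets of these genes passed Fisher's exact test, which passed for 0.0% of the 33 two-level probe sets in hippocampus and for 0.0% in prefrontal cortex. The lowest adjusted p was 0.935 in either region, and 0 of the 33 had an unadjusted p under 0.05. Counts in both regions were equal, so each is given once.

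Cap1 and Mtmr7 had the largest differences in number, in opposite directions. Cap1 was at the upper level in 15 of 16 Tg2576 mice, against 10 of 16 wild-type mice (exact unadjusted p = 0.0829). Mtmr7 was upper in 9 of 16 Tg2576 mice, against 14 of 16 wild-type mice (exact unadjusted p = 0.113). Neither difference passed the adjusted test.

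The other 8 genes differed by 4 mice or fewer. Rpgrip1 was upper in 10 Tg2576 and 14 wild-type mice, Prdx2 in 10 and 13, Pcdhb9 in 7 and 10, and Tmem87a in 9 and 11. Stk25 was upper in 13 Tg2576 and 10 wild-type mice, Pttg1 in 14 and 12, and Tia1 in 13 and 12. Prune2 was upper in 12 mice of either genotype.

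No difference between PF-04447943 and vehicle passed either. Of level frequencies, 0 of the 11 two-level probe sets passed, beside 0.0% of the 33 in each region, with a lowest adjusted p of 1 and 0 unadjusted p under 0.05. Tmem87a differed most, at the upper level in 12 of 16 mice given PF-04447943 and in 8 of 16 given vehicle (exact unadjusted p = 0.273). Tia1 was upper in 14 mice given PF-04447943 and 11 given vehicle, and Stk25 in 10 and 13. The other 7 genes differed by at most 2 mice.

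Within single groups of 8 the counts ran from 3 to 8. Tia1 was upper in 6 Tg2576 mice given PF-04447943 and 7 given vehicle, and in 8 wild-type mice given PF-04447943 but 4 given vehicle. Its hippocampal values in wild-type mice given PF-04447943 were 8.46 at the lowest, 8.71 at the median and 9.28 at the highest, against 4.48, 6.54 and 8.96 in wild-type mice given vehicle. The groups overlapped, since upper vehicle arrays at 8.47 and 8.96 lay within the PF-04447943 range. Cap1 was upper in 7 Tg2576 mice given PF-04447943 and 8 given vehicle, and in 5 of either wild-type group. Tmem87a was upper in 6 Tg2576 mice given PF-04447943 and 3 given vehicle, and in 6 wild-type mice given PF-04447943 and 5 given vehicle. Counts of the 3 levels were not tested. Pttg1 was high in 1 Tg2576 mouse given PF-04447943 and 6 given vehicle, and in 2 of either wild-type group.

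**Figure D5:**
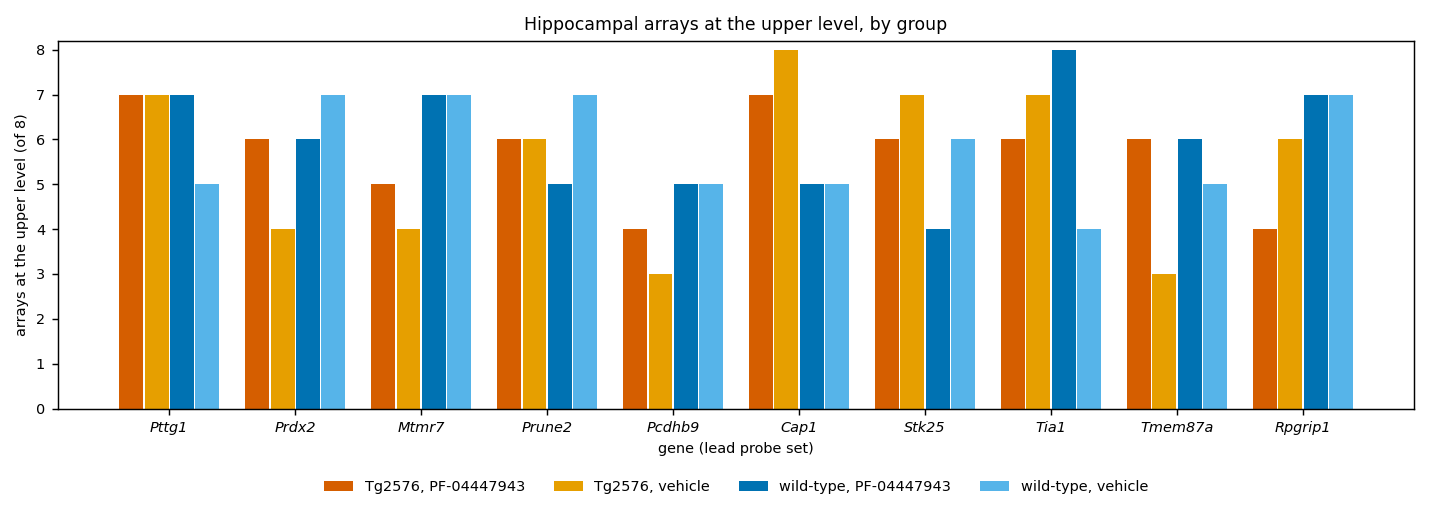
Number of hippocampal arrays at the upper level (vertical axis, of 8) for the lead probe set of each gene in the 4 groups. Bars stand between 3 and 8, with Cap1 at 8 in Tg2576 mice given vehicle, Tia1 at 8 in wild-type mice given PF-04447943, and Tmem87a and Pcdhb9 at 3 in Tg2576 mice given vehicle.

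Differences between groups within a level were small beside the steps between levels. In a permutation test that shuffled mice only within a level, the transgene difference (Tg2576 minus wild-type) ran from -0.05 to 0.17 log2 units over the 11 probe sets in hippocampus and from -0.06 to 0.30 in prefrontal cortex. The medians were 0.09 and 0.13, against -0.003 and 0.04 over the 33 two-level probe sets. None passed, beside 3.03% of the 33 in hippocampus, the probe set of Rps9, and 0.0% in prefrontal cortex.

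The smallest unadjusted p for the transgene belonged to Prdx2 in prefrontal cortex, at a difference of 0.28 (permutation p = 0.00579, adjusted p = 0.191). Its lower level averaged 8.19 ± 0.19 in 6 Tg2576 arrays and 7.86 ± 0.18 in 3 wild-type arrays (SD). Of its 4 high arrays, 3 were Tg2576 and 1 was wild-type, and with the 3 levels kept apart the difference was 0.17 (permutation adjusted p = 0.126).

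For the drug (PF-04447943 minus vehicle) the differences within a level ran from -0.30 to 0.31 in hippocampus and from -0.24 to 0.19 in prefrontal cortex. The medians were 0.01 and -0.09, against 0.05 and -0.07 over the 33. None passed, beside 0.0% of the 33 in either region. The ends of the hippocampal range were Pttg1 at -0.30 (permutation p = 0.0341) and Rpgrip1 at 0.31 (permutation p = 0.0162, adjusted p = 0.267).

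These 2 values moved when the middle and high levels were kept apart. Pttg1 then had a difference of 0.01 (permutation p = 0.931), while Rpgrip1 had 0.12 (permutation p = 0.00207, adjusted p = 0.0441), so that Rpgrip1 passed only in this alternative. Hippocampal Rpgrip1 at the high level averaged 10.06 ± 0.06 under PF-04447943 (SD, n = 5) and 9.93 ± 0.06 under vehicle (n = 2). At the middle level it averaged 9.19 ± 0.06 (n = 6) and 9.13 ± 0.06 (n = 11), and at the low level 6.88 ± 0.13 (n = 5) and 6.64 ± 0.22 (n = 3). The drug group had the higher mean at each level in hippocampus, with overlapping values at the middle and low levels. In prefrontal cortex the difference with 3 levels was -0.002 (permutation p = 0.983).

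Tested as ordinary transcripts with limma, none of these probe sets passed for genotype or treatment. Of the 26 probe sets, 22 had a mean signal above the 40th percentile and were tested among 27022. For the transgene 0 of 22 passed in hippocampus, where 0.0962% of all probe sets did, and 0 of 22 in prefrontal cortex, where 0.0259% did. For the drug 0 of 22 passed in hippocampus, beside 2.18% of all, and 0 of 22 in prefrontal cortex, beside 0.0% by limma, where 612 probe sets had an unadjusted p under 0.05. The drug by genotype interaction passed for 0.0% of all probe sets in either region by limma, although 928 in hippocampus and 828 in prefrontal cortex had an unadjusted p under 0.05.

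The fitted differences of the two-level probe sets followed the level counts and had wide errors. Their standard errors for the transgene were 0.16 to 0.72 log2 units in hippocampus and 0.17 to 0.75 in prefrontal cortex. Their median transgene difference was 0.12 in hippocampus and 0.19 in prefrontal cortex, against -0.0004 and 0.03 over all probe sets tested. Cap1, with its excess of upper Tg2576 mice, had a transgene difference of 0.78 ± 0.31 in hippocampus (SE, limma adjusted p = 0.598) and 0.81 ± 0.29 in prefrontal cortex (adjusted p = 0.366). With the level as a covariate these fell to 0.12 and 0.20.

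Mtmr7, with fewer upper Tg2576 mice, had a transgene difference of -1.28 ± 0.60 in hippocampus (SE, limma adjusted p = 0.654) and -1.45 ± 0.68 in prefrontal cortex (adjusted p = 0.428). With the level as a covariate these were -0.06 and -0.07. The hippocampal Mtmr7 values were 4.55 at the lowest, 8.75 at the median and 9.81 at the highest in Tg2576 mice given PF-04447943, and 4.66, 6.79 and 9.69 in those given vehicle. In wild-type mice they were 5.30, 8.75 and 9.80 under PF-04447943 and 4.85, 8.84 and 9.63 under vehicle. All 4 groups overlapped over nearly their whole range.

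Tia1 had the largest interaction, -2.65 ± 1.0 in hippocampus (SE, limma adjusted p = 0.983) and -2.24 ± 0.98 in prefrontal cortex (adjusted p = 0.9999), and it did not pass. With the level as a covariate it was -0.38 and -0.08.

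Between the regions, in the fit without a block, 5 of 22 probe sets of these genes changed, beside 68.3% of all 27022, and none of the 11 two-level ones was among them. Their standard errors were 0.12 to 0.53 log2 units, so that a shift between regions smaller than the step between levels was hard to detect in this fit. Tia1 1416813_at was higher in hippocampus by 0.31 and 1437934_at by 0.30, and 1416814_at by 0.23. Mtmr7 1427025_at was lower in hippocampus by 0.38 and Prdx2 1418506_a_at by 0.09. Mtmr7's lead probe set had a difference of -0.56 ± 0.47 (SE, limma adjusted p = 0.282), and Stk25's 0.21 ± 0.12 (adjusted p = 0.108). Pairing the arrays changed these calls. With each same-numbered pair of a group as a replicate block, 11 of 22 passed, 4 of the 11 two-level ones among them, including the leads of Mtmr7 (limma adjusted p = 0.0015), Stk25 (0.00216) and Cap1 (0.00976). With the arrays matched by level as the block, an alternative chosen after the data were seen, 15 of 22 and 7 of the 11 passed. The leads of Mtmr7 and Prune2 were then lower in hippocampus by 0.56 ± 0.07 and 0.36 ± 0.06 (SE, limma adjusted p = 3.61e-09 and 3.88e-06), and Stk25 was higher by 0.21 ± 0.03 (adjusted p = 1.41e-07). This match uses the levels themselves, so by construction it takes the step between levels out of the error.

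For the 44 pairs of these genes on different chromosomes, the phi coefficient between their levels over 32 mice, a description with no test, ran from -0.33 (Cap1 and Stk25) to 0.47 (Pcdhb9 and Rpgrip1), with a median of -0.02. The 10 genes lie on 9 chromosomes. Prdx2 and Mtmr7 share chromosome 8 with 344 protein-coding genes between them in RefSeq's GRCm38.p6, and had equal levels in 26 of 32 mice (phi 0.54).

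Among two-level probe sets of other genes, that of Ang, encoding the ribonuclease angiogenin, was most like a member. Ang 1438936_s_at correlated with Rpgrip1 at r = 0.97 over 64 values centred by region, and the levels were equal in 32 of 32 mice in both regions. Ang and Rpgrip1 both lie on chromosome 14, with 26 protein-coding genes between them. Nsg2, a neuronal vesicle protein gene, reached r = 0.798 with Pttg1, just under the limit of 0.8 for naming a gene, and shares chromosome 11 with it. For the other 8 genes the best partner had an absolute r of 0.22 to 0.46.

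Of 52 listed relatives, among them the other clustered beta protocadherins, the peroxiredoxins and the myotubularins, 47 had a probe set of their own. The list also held the separase gene Espl1 for Pttg1 and Rpgr for Rpgrip1, which are binding partners and not family members. None of their 96 probe sets met the rule, which is near the 0.0733% of the array and says nothing particular of relatives. The highest separation, 4.40 SDs, was in the myotubularin family and would meet a limit of 4 SDs. This list was drawn up with the members already known.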

How the data were processed

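The deposited values are linear intensity values from the authors; the submitters' processing notes name RMA, whose version is not given in the sources used here. They were converted to log2 with no pseudocount. Control probe sets (64) were left out. Gene names and chromosomes came from the platform annotation updated through RefSeq genes (GRCm38.p6), which gave 34945 probe sets 1 symbol, 932 several and 9160 none. Members and lists were chosen with earlier results of these data known.

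All probe sets of the 10 genes are covered, by name or within a stated group of probe sets of the gene. The lead is the most separated, and up to 2 other genes per member are named at an absolute r of 0.8. Level tests were exact or used 100000 permutations, and adjustment covered all 33 two-level probe sets. Differences were fitted with limma 3.58.1 (R 4.3.3), two-sided, adjusted over all 27022 probe sets above the 40th percentile, threshold 0.05, no block. Scripts ran in Python 3.11.15 (scipy 1.17.1) and were tested on simulated data. Arrays have no read depth, so 8 per group limit the precision. Numbers were checked as pairing: over other probe sets, 19 of 32 same-numbered pairs correlated above 0.1. These were 3 of 8 in Tg2576 and 3 of 8 in wild-type mice given PF-04447943, against 6 and 7 of 8 given vehicle. Once matched by level, 5 of 8 did in Tg2576 mice given PF-04447943. Not all pairs were above 0.1, and the labels do not state that a number marks 1 mouse, so the main fits have no block. Level profiles nevertheless agreed by number in the 3 groups other than Tg2576 given PF-04447943, and blocked fits are alternatives. The design text gives 8 mice per group, and the labels do not say whether a number marks the same mouse in both regions. Alternatives covered the level rule, normalization, filters and pairing.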

Additional observations from a re-analysis of the deposited data

Results flagged for a closer look

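In groups of 8 arrays, a lowest or highest value was marked when its gap to the next exceeded Dixon's 95% critical share of the group's range. The usual chance rate of about 1 of 20 groups does not apply here. The probe sets were chosen for a wide gap between levels, which by itself marks a single lower array. Of the 80 groups formed by 10 lead probe sets, 2 regions and 4 groups of mice, 24 were marked, each for its lowest array. They are the 12 combinations of gene and group in which 7 of 8 arrays were upper, each in both regions, so the marked array is the single lower-level one.

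For Pttg1 the gap was 0.628 of the range in hippocampus and 0.742 in prefrontal cortex of Tg2576 mice given PF-04447943, 0.813 and 0.782 in Tg2576 mice given vehicle, and 0.755 and 0.725 in wild-type mice given PF-04447943. For Mtmr7 it was 0.724 in hippocampus and 0.735 in prefrontal cortex of wild-type mice given PF-04447943, and 0.755 and 0.798 in those given vehicle. For Rpgrip1 it was 0.706 in hippocampus and 0.733 in prefrontal cortex of wild-type mice given PF-04447943, and 0.731 and 0.721 in those given vehicle.

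In wild-type mice given vehicle, Prdx2 had a gap of 0.673 in hippocampus and 0.692 in prefrontal cortex, and Prune2 0.720 and 0.788. Cap1 in Tg2576 mice given PF-04447943 had 0.689 in hippocampus and 0.650 in prefrontal cortex. In Tg2576 mice given vehicle, Stk25 had 0.670 in hippocampus and 0.772 in prefrontal cortex, and Tia1 0.647 and 0.639.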

How the results depend on the processing

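Under 7 alternatives for finding the levels, the 11 two-level probe sets of the 10 genes ranged from 8 at 6 SDs to 12 at 4 SDs, which added Pcdhb9. The two-level probe sets of the array numbered 126 at 4 SDs and 15 at 6 SDs, against 33, and those that passed the agreement test 70 and 14, against 31. At 4 SDs the hippocampal transgene difference within a level passed for 0, against 1 (Rps9). The hippocampal drug difference within a level passed for 1 at 6 SDs and for 2, with Rpgrip1 among them, when the high and middle levels were kept apart, against 0. Agreement of every gene with a test kept its call.

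With limma, the hippocampal drug effect passed for 1666 probe sets with no filter, 148 with a 60th percentile filter, 257 after quantile normalization, 365 with arrays centred on their median, 1206 with the replicate number as a block and 309 with the brightest probe set per gene, against 589. It was higher in 210 and lower in 379 of these, against 49 and 208 after quantile normalization and 180 and 185 after centring. The hippocampal transgene effect passed for 12 with the brightest probe set per gene, against 26 (15 higher, 11 lower, against 21 and 10 after quantile normalization). The prefrontal cortex transgene effect passed for 11 with the 60th percentile filter, 13 after quantile normalization (11 higher, 2 lower), 0 after centring and 26 with the replicate number as a block, against 7, all higher. The prefrontal cortex drug effect passed for 1 with the 60th percentile filter, the trend and robust prior, the block and the brightest probe set, against 0. The region difference passed for 9334 with the brightest probe set, against 18462. As shares of those tested, these are 72.1% and 68.3%. With the brightest probe set the hippocampal drug effect passed for 2.38%, against 2.18%, and the transgene effect for 0.0926%, against 0.0962%. The hippocampal drug share was 3.7% with no filter and 0.822% with the 60th percentile filter. Fewer probe sets were tested with a filter or 1 per gene; otherwise the cause was not tested. With no filter 1 of the 26 probe sets of these genes passed for the drug in hippocampus, beside 3.7% of all 45037. It was Rpgrip1 1431357_a_at, which fell by 0.23 (limma adjusted p = 0.0121). Its hippocampal mean of 4.92 lay below the 40th percentile at 5.94, so the main fit left it out. Of the 1666 that passed with no filter, 1331 were lower under the drug.

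Same-numbered arrays agreed in their levels in 3 groups. Over other probe sets, 16 of all 32 arrays correlated best with their own number. In Tg2576 mice given PF-04447943 the correlations of same-numbered pairs began at -0.28, and 2 of 8 arrays were best with their own number. In the 3 agreeing groups the correlations ran from -0.195 to 0.65. There 6 of 8 Tg2576 vehicle, 3 of 8 wild-type PF-04447943 and 5 of 8 wild-type vehicle arrays were best with their own number. With a block of genotype, treatment and number, 11 of the 22 probe sets of these genes passed between regions, against 5, and 3 lead probe sets were added, Stk25 (0.21), Cap1 (0.13) and Mtmr7 (-0.56), with limma adjusted p of 0.00216, 0.00976 and 0.0015. With the arrays matched by level as the block, 15 of 22 passed. With the arrays paired by level instead of by number, 31 of 33 two-level probe sets passed the agreement test, the same count as by number. This pairing was made to bring the levels of other two-level probe sets together, so its count is no separate test of agreement. Probe sets without a known chromosome were paired on all the others, linked ones included. Without the pairs of Tg2576 mice given PF-04447943, 31 of 33 passed.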
